A study of Mus musculus with 4 samples.

Results

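A set of 10 genes usually read as genes of the B cell lineage was followed in follicular helper CD4+ T (TFH) cells with and without Rictor, the subunit that defines mTOR complex 2 (mTORC2). The set held Cd22, Fcgr2b, Fcrl1, Pou2af1, Cd79a, Cd79b, Blnk, Ms4a1, Jchain and Mzb1, 10 of the 18193 genes measured on the arrays. The 10 genes were selected on a reading of the same comparison, so their differences between the groups, and where they were called, are a description and not an independent test. A gene's values come from probe sets that carry its symbol alone, of which the 10 genes had 17 among 45037 on the array, and the brightest over all 4 arrays stands for the gene. Arrays were made from TFH cells of the spleen at day 8 after infection with the Armstrong strain of LCMV, 2 of Rictor-/- cells and 2 of WT cells. The Rictor-/- mice carried Rictor fl/fl with the Cd4-Cre transgene, and WT mice were their littermates with Rictor fl/fl and no Cre, so that both groups had the floxed alleles. Cd4-Cre acts from the double-positive stage of the thymus, and so in CD8+ as well as CD4+ T cells. The mice were young adults of both sexes, and each array was a biological replicate of cells pooled from several mice, a number on which the sources used here differ.

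In B cells, the antigen receptor is a membrane antibody bound to the signalling chains CD79a and CD79b, and the adaptor BLNK links it to calcium signalling. The receptors CD22 and FcγRIIB hold this signal back through phosphatases, and CD20, the product of Ms4a1, is a surface protein of mature B cells. When a B cell becomes a plasma cell it switches to the secretion of antibody, with the J chain, which joins the units of IgM and IgA, and the chaperone MZB1 among its products. OCA-B, the product of Pou2af1, is a coactivator of octamer-binding transcription factors that B cells and TFH cells both use. TFH cells work in close contact with B cells in the follicle and the germinal center, and arrays of sorted cells do not tell which cell a transcript came from.

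The bases upstream of 5 of the genes are shown first, for Cd22, Pou2af1, Fcgr2b and Jchain, on which the results below turn, and for Blnk, the single member with an octamer. Each line holds the 250 bases before a start site of the gene in RefSeq's GRCm38.p6 annotation, on the strand of the gene, and capitals mark a motif from a list of 4 searched on both strands: the octamer ATGCAAAT, the E-box CACCTG, the PU.1 box GAGGAA and the Ets site GGAAGT.
Cd22: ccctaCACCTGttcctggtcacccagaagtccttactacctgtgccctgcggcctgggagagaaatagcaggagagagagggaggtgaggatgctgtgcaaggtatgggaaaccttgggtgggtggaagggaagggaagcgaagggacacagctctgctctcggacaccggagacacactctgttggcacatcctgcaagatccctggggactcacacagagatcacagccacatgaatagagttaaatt
Pou2af1: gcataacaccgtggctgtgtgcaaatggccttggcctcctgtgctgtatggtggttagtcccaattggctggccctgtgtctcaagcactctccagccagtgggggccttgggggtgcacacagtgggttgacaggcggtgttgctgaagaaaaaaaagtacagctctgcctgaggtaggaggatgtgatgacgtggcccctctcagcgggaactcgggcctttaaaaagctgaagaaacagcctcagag
Fcgr2b: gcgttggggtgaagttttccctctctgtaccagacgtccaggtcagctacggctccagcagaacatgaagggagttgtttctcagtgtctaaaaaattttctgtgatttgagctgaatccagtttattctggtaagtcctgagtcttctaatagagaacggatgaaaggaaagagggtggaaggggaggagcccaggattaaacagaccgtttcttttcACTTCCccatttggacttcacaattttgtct
Jchain: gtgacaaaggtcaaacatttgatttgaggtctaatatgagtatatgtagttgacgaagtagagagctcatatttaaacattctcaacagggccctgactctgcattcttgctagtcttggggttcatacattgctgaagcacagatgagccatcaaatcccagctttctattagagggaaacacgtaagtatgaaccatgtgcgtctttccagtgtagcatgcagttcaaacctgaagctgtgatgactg
Blnk: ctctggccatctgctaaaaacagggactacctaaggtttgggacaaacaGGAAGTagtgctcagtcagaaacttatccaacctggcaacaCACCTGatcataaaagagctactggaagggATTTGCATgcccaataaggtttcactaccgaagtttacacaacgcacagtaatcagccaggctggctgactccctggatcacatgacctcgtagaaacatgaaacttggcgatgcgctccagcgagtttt
The windows lie at chr7:30879029-30879278 on the minus strand for Cd22, chr9:51213440-51213689 on the plus strand for Pou2af1, and chr1:170976072-170976321 on the minus strand for Fcgr2b. Those of Jchain and Blnk lie at chr5:88527898-88528147 and chr19:40994222-40994471, both on the minus strand. For Cd22 and Fcrl1 the start site used lies inside the annotated span of the gene, so that these windows are not upstream of its outermost start. The Cd22 window holds an E-box that begins 245 bases before the start, the Fcgr2b window an Ets site at 31 bases, and the Blnk window an octamer at 130 bases, an E-box at 160 and an Ets site at 201. None of the 4 motifs stood in the Jchain or Pou2af1 window. A promoter entry was matched for 7 of the 10 genes, which leaves out Cd79b, Ms4a1 and Mzb1. The octamer stood in 1 of these 7 windows and in 1.60% of all 32851 windows of that length, the E-box in 3 of 7 and 17.2%, the PU.1 box in 2 of 7 and 23.3%, and the Ets site in 4 of 7 and 19.7%. The PU.1 box and the Ets site overlap in part where they meet, as in the window of Fcrl1. A match is a run of letters and not a bound site.

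Intensity is a linear signal already scaled between arrays, and levels of different genes are not compared, because each probe set has its own response. Fold changes are on the log2(intensity + 16) scale unless a linear ratio is named, and this scale makes the change of a dim gene look smaller. Calls are by limma, a linear model fitted across all genes, at an adjusted p under 0.05. The targeted gene was read first. In the brightest of 5 Rictor probe sets, the intensities were 267 and 279 on the Rictor-/- arrays and 334 and 303 on the WT arrays, with a log2 fold change of -0.21. The other 4 probe sets had log2 fold changes from -0.03 to 0.11. The call was lost with probe sets averaged (log2 fold change -0.01), with p adjusted over all probe sets (adjusted p = 0.0868), with no trend in eBayes (adjusted p = 0.0637 from limma) and without Rictor-/- replicate 1, WT replicate 1 or WT replicate 2 (adjusted p = 0.159, 0.297 and 0.0824). The exons read by each probe set were not given, so these values do not check the deletion. The authors separately report undetectable Rictor mRNA in TFH cells of Rictor-/- mice. The median intensity was 19.98 to 20.4 over the 4 arrays. Arrays correlated at 0.998 within both groups and at 0.993 to 0.994 between them (Pearson's r across probe sets, which are not independent replicates). The p-values and standard errors of limma rest on the spread between pools of mice, shared across genes of similar intensity. They are thus not the spread of the single gene alone, and 2 arrays per group limit the precision.

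The 10 genes did not move together. Cd22, Pou2af1 and Fcrl1 were lower and Jchain, Fcgr2b, Mzb1 and Cd79b were higher in Rictor-/- than in WT TFH cells (limma, adjusted p under 0.05), while Cd79a, Ms4a1 and Blnk did not pass. Of all 18193 genes, 12.5% were called higher and 7.19% lower, together 19.7%, against 4 and 3 of these 10. Because the genes were chosen with this comparison in view, nothing is read from their share. The brightest probe sets of Cd79a, Ms4a1 and Blnk were dimmer on every array than the median probe set, at an intensity of 20.2, a range in which expression cannot be told from background. Cd22, Fcgr2b, Fcrl1, Pou2af1, Jchain and Mzb1 lay above it on every array. Cd79b lay above it on the Rictor-/- arrays and at about its level on the WT arrays. Signal above the median in both groups was thus present for 6 of the 10. By the mean over the 4 arrays, 7 of the 10 lay above the median, and 10696 of all 18193 genes reached it. Signal in sorted cells does not tell whether the TFH cells themselves made a transcript. In bulk samples, fewer cells that make a transcript and less of it per cell cannot be told apart.

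**Figure D1:**
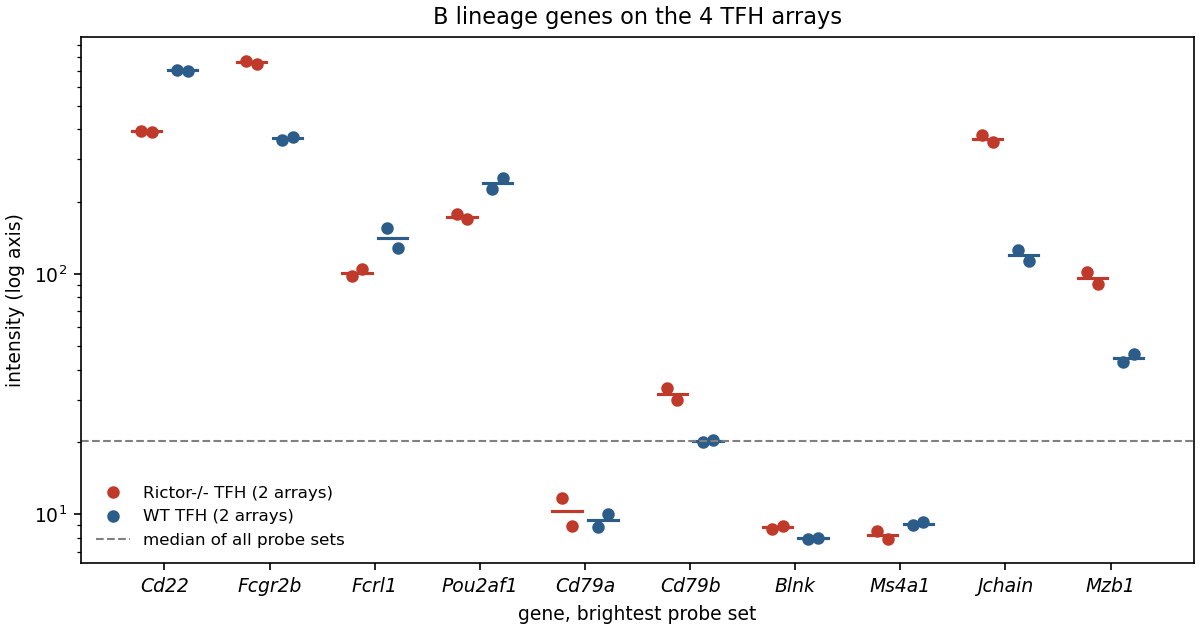
Intensity (log axis) of the brightest probe set of each of the 10 genes in Rictor-/- (red, left) and WT (blue, right) TFH cells, where each point is an array, each bar the mean of 2 arrays and the dashed line the median of all probe sets. Cd22, Fcrl1 and Pou2af1 lie lower and Fcgr2b, Cd79b, Jchain and Mzb1 higher in Rictor-/- TFH cells, and Cd79a, Blnk and Ms4a1 stay under the line.

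Among the receptors, Cd22 was lower. CD22 is an inhibitory lectin that binds sialic acid in α2,6 linkage and recruits the phosphatase SHP-1. Its intensities were 393 and 391.5 on the Rictor-/- arrays and 704 and 703 on the WT arrays, so that the groups lay far apart and the 2 arrays of a group were nearly equal. The means were 392.2 ± 1.004 and 703 ± 0.778 (SD, n = 2 each), a linear ratio of 0.558 and a log2 fold change of -0.82 with a standard error of 0.05. A dimmer probe set of Cd22 gave 49.3 and 40.7 on the Rictor-/- arrays and 85.6 and 88.1 on the WT arrays, with a log2 fold change of -0.76. Both readings of the gene therefore pointed the same way.

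Fcgr2b went the other way. It encodes FcγRIIB, the inhibitory receptor for IgG that signals through the phosphatase SHIP-1. The brightest of its 5 probe sets read 772 and 748 on the Rictor-/- arrays and 363 and 371 on the WT arrays. The means were 760.3 ± 16.7 and 367 ± 6.24 (SD, n = 2 each), a linear ratio of 2.07 and a log2 fold change of 1.02 with a standard error of 0.05. Of its other probe sets, 3 also had both Rictor-/- arrays above both WT arrays, with log2 fold changes of 0.72, 0.996 and 1.10. The dimmest probe set read 3.90 and 4.33 on the Rictor-/- arrays and 4.37 and 3.89 on the WT arrays, where the groups overlapped at a signal far under the median. The brightest probe set and another of the 5 carry suffixes (s and x) with which the maker marks probes that may also detect related transcripts. Fcgr3, the neighbouring gene of an activating IgG receptor with a closely related extracellular part, read 108 and 81.4 on the Rictor-/- arrays and 30.4 and 29.5 on the WT arrays. How much of the Fcgr2b signal comes from transcripts of its relatives is uncertain.

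Fcrl1 encodes an Fc receptor-like protein of B cells that has activating motifs in its tail. It read 98.1 and 105 on the Rictor-/- arrays and 155 and 128 on the WT arrays, and the groups did not overlap. The log2 fold change was -0.42 with a standard error of 0.09, and the linear ratio 0.718. Without WT replicate 1 the log2 fold change was -0.29 and the gene no longer passed (adjusted p = 0.109 from limma). Its other probe set, with 7.71 and 7.29 on the Rictor-/- arrays and 12.2 and 9.24 on the WT arrays, was dimmer than the median probe set.

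Pou2af1, whose protein OCA-B binds octamer factors and supports antibody gene transcription, was read by 1 probe set. Its intensities were 177 and 169 on the Rictor-/- arrays and 225 and 252 on the WT arrays. The means of 173 ± 5.75 and 239 ± 18.6 (SD, n = 2 each) gave a linear ratio of 0.726 and a log2 fold change of -0.43 with a standard error of 0.07. Without WT replicate 2 the log2 fold change was -0.35, and the gene no longer passed (adjusted p = 0.0545 from limma). Pou2f2, the gene of the octamer factor Oct-2 with which OCA-B works, read 70.1 and 74.4 on the Rictor-/- arrays and 73.9 and 72.2 on the WT arrays, and the groups overlapped.

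The chains of the B cell receptor were near the lower end of the array. Cd79b read 33.5 and 29.8 on the Rictor-/- arrays and 20.02 and 20.3 on the WT arrays, so that the WT arrays lay at the median of all probe sets and the Rictor-/- arrays just above it. The log2 fold change was 0.40 with a standard error of 0.08, and the linear ratio 1.57. With 1 WT array left out the gene no longer passed, with log2 fold changes of 0.39 without replicate 1 and 0.40 without replicate 2 (adjusted p = 0.0532 and 0.0504 from limma). With an offset of 1 the log2 fold change was 0.62. Cd79a, the partner chain that must pair with CD79b to reach the surface, read 11.7 and 8.92 on the Rictor-/- arrays and 8.86 and 10.01 on the WT arrays. The groups overlapped, and the log2 fold change of 0.0476 was smaller than its standard error of 0.0547.

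Blnk and Ms4a1 were dim too. Blnk, the adaptor downstream of the receptor, read 8.70 and 8.97 on the Rictor-/- arrays and 7.93 and 7.97 on the WT arrays. Ms4a1 read 8.50 and 7.91 on the Rictor-/- arrays and 9.06 and 9.26 on the WT arrays, and its other probe set 4.604 and 5.04 on the Rictor-/- arrays and 4.30 and 4.35 on the WT arrays. The log2 fold changes were 0.05 for Blnk and -0.06 for Ms4a1, at a signal where no expression can be claimed, and the probe sets of Ms4a1 pointed in opposite directions.

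Jchain and Mzb1, the members that serve antibody secretion, were higher. Jchain, with 1 probe set, read 378 and 353 on the Rictor-/- arrays and 126 and 113 on the WT arrays. The means of 366 ± 17.9 and 120 ± 9.49 (SD, n = 2 each) gave a linear ratio of 3.06 and a log2 fold change of 1.49 with a standard error of 0.07. Mzb1, which helps to fold antibody in the endoplasmic reticulum, read 102 and 90.8 on the Rictor-/- arrays and 43.1 and 46.6 on the WT arrays. Its linear ratio was 2.14 and its log2 fold change 0.88 with a standard error of 0.09. In both genes the lower Rictor-/- array was well above the higher WT array.

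**Figure D2:**
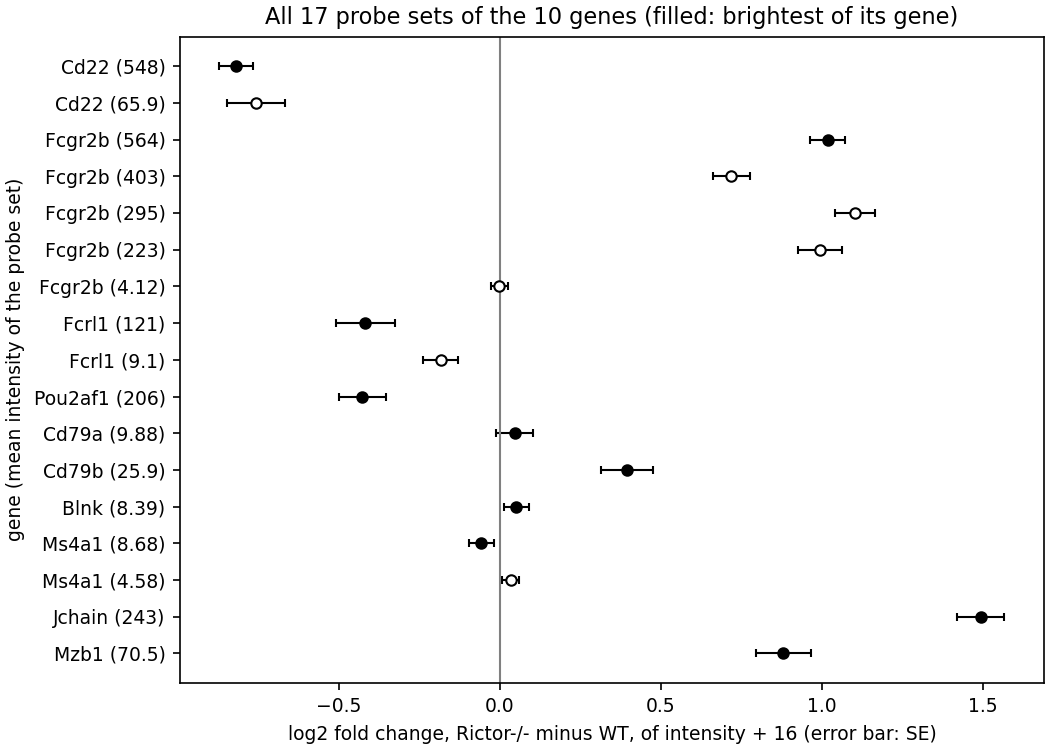
Log2 fold change (x axis, Rictor-/- minus WT, of intensity + 16) of all 17 probe sets of the 10 genes, with the standard error as the bar, the mean intensity beside the gene and the brightest probe set of each gene filled. The probe sets of Cd22 lie at -0.82 and -0.76, the 4 brighter ones of Fcgr2b between 0.72 and 1.10, and Jchain at 1.49.

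Next, the antibody genes themselves were read, since Jchain and Mzb1 serve their products. On the array, 45 probe sets have a single symbol that begins with Igh, Igk or Igl, among them 2 of Igll1, a surrogate light chain gene. Of these, 16 were higher in Rictor-/- TFH cells and 0 lower by limma, with p adjusted over all probe sets and a threshold of 0.05 (19 higher and 0 lower at an unadjusted p under 0.05). Of all 45037 probe sets, 6.38% were called higher and 4.63% lower. Without WT replicate 1 or without WT replicate 2, 8 were called. Among the 18 of them above the median of the array, 12 were higher. The Igll1 probe set among them had a log2 fold change of -0.16, and the other 17 ran from 0.02 to 1.38.

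The probe sets of Ighm differed among themselves. Ighm, the μ heavy chain gene, read 2750.4 and 2864 on the Rictor-/- arrays and 2782 and 2754 on the WT arrays in its brightest probe set, and the groups overlapped. Another Ighm probe set read 1201 and 1285 on the Rictor-/- arrays and 1176 and 1145 on the WT arrays, with a log2 fold change of 0.10 that did not pass the test. Yet another bright probe set of Ighm read 816 and 800.4 on the Rictor-/- arrays and 401 and 370.2 on the WT arrays, with a log2 fold change of 1.04. It was picked after its values were seen. Igha, the α heavy chain gene, read 1688 and 1719.5 on the Rictor-/- arrays and 965 and 941 on the WT arrays, with a log2 fold change of 0.83 and a standard error of 0.04 (adjusted p = 8.25e-06 from limma), and its other 2 probe sets were at 0.85 and 0.91. The light chain probe sets with the largest differences, also picked after their values were seen, were those of Iglv1 and Igkv8-30. Igkv8-30 read 545 and 511 on the Rictor-/- arrays and 209 and 212 on the WT arrays, and Iglv1 read 172 and 149.7 on the Rictor-/- arrays and 54.6 and 49.5 on the WT arrays. A probe set of Igkv19-93, at 0.10, did not pass. The segments of these loci share sequence, so that the gene named for a probe set is uncertain.

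**Figure D3:**
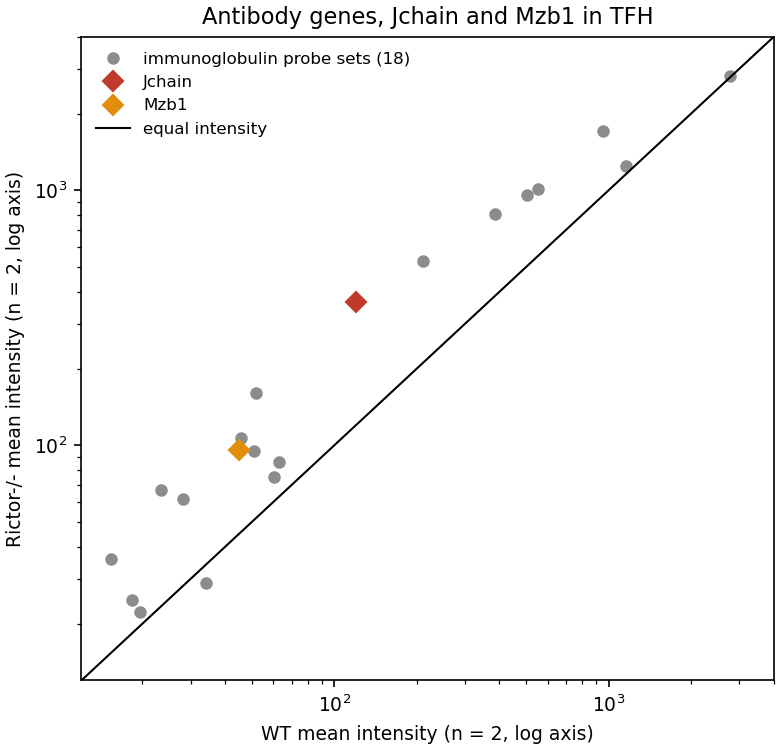
Mean intensity of the 18 immunoglobulin probe sets above the median of all probe sets (grey), of Jchain (red) and of Mzb1 (orange), with Rictor-/- TFH cells on the y axis, WT TFH cells on the x axis, both logarithmic, and the line of equal intensity. Jchain, at 366 in Rictor-/- and 120 in WT TFH cells, lies above the line with most of the grey points, while the brightest grey point, a probe set of Ighm, lies on it.

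Markers show which cells the sorted populations could hold. All 9 TFH markers (Cd3e, Cd4, Cxcr5, Pdcd1, Bcl6, Icos, Il21, Cd200 and Tox2) lay above the array's median. By their mean over the 4 arrays, so did 5 of the 7 myeloid markers, and 10696 of all 18193 genes reached it. No other sorted cell type was measured, so the label was not tested. Of the 9, 7 were lower in Rictor-/- TFH cells, with Bcl6 at a log2 fold change of -0.94 and Cxcr5 at -0.70. Of these 7, Cd3e no longer passed without WT replicate 1 or without WT replicate 2 (adjusted p = 0.0994 and 0.053 from limma), nor did Cd4 without Rictor-/- replicate 2 or WT replicate 1 (adjusted p = 0.0699 and 0.214). Defining markers of B cells were near the floor. Of 8 measured, only Cd79b lay above the median by its mean over the 4 arrays, and Ms4a1, Cd79a, Pax5, Ebf1, Blk, Cr2 and Fcer2a lay below it. Their summed intensity was 106 to 113 on the Rictor-/- arrays and 90.4 to 94.2 on the WT arrays, and without the members among them 59.5 on both Rictor-/- arrays and 50.8 to 56.3 on the WT arrays. Among the 6 plasma cell markers, Sdc1 and Tnfrsf17 lay below the median, with 15.3 and 16.6 on the Rictor-/- arrays and 14.5 and 15.1 on the WT arrays for Sdc1. The summed plasma cell markers were 1353 to 1414 on the Rictor-/- arrays and 1167 to 1239 on the WT arrays. Without Jchain and Mzb1 the order turned, to 873 to 970.2 on the Rictor-/- arrays and 1007 to 1069.8 on the WT arrays. Xbp1, which T cells also express, makes up most of that sum and sets its order, with 818 and 911 on the Rictor-/- arrays and 1016 and 953 on the WT arrays. The rest of the sum did not share this order. Tnfrsf17 read 11.6 and 13.0 on the Rictor-/- arrays and 9.52 and 10.3 on the WT arrays. Derl3 read 28.2 and 29.3 on the Rictor-/- arrays and 30.1 and 28.9 on the WT arrays, and the groups overlapped. Sdc1, Tnfrsf17 and Derl3 did not pass.

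Some markers of other cells were higher alongside Fcgr2b, Jchain and Mzb1. The 7 myeloid markers summed to 260.4 to 283 on the Rictor-/- arrays and 175 to 181 on the WT arrays. Lyz2, Itgam and Tyrobp were higher, at log2 fold changes of 0.77, 0.64 and 0.41, while Csf1r and Fcer1g, at 0.21 and 0.09, did not pass (adjusted p = 0.118 and 0.61 from limma) and Adgre1 and Cd14 were dim. With an offset of 1 in place of 16, Itgam was at 1.08 and Tyrobp at 0.62. Without WT replicate 2, Tyrobp no longer passed (log2 fold change 0.29, adjusted p = 0.0978 from limma). FcγRIIB is also a receptor of myeloid cells. The 3 measured CD8 T and NK cell markers summed to 158 to 173 on the Rictor-/- arrays and 119 to 126 on the WT arrays, and of the 3 only Cd8b1 passed. Cd8b1 read 139 and 123 on the Rictor-/- arrays and 90.1 and 82.2 on the WT arrays. Cd8a read 23.7 and 25.2 on the Rictor-/- arrays and 24.7 and 24.02 on the WT arrays, and Ncr1 was dim. The part of these other cells in the values of Fcgr2b, Jchain and Mzb1 was not tested.

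Other genes of B cell biology were then counted in lists without the 10 genes. Of all 18193 genes, 12.5% were called higher and 7.19% lower. Of the 10696 genes that reached the array's median, fitted alone, 2484 were higher and 1490 lower. The lists were written with earlier results of these data known, so nothing is read from their counts. In the list of B cell surface genes, 7 of 25 measured rose and 1 fell (limma, adjusted over all genes). The median log2 fold change was 0.06, against 0.0068 for all genes. Among the 7, H2-Ab1 was dimmer than the median probe set. H2-Aa, a chain of MHC class II, rose by 0.79 and H2-Ob, part of its loading machinery, by 0.56 on the log2 scale. The co-stimulatory ligand gene Cd86 rose by 0.54 and Cd24a by 0.46 on the same scale. With the probe sets of a gene averaged, H2-Aa was at 0.27 and Cd24a at 0.24. These are also genes of dendritic and other antigen-presenting cells. With WT replicate 1 or WT replicate 2 left out, 4 genes of the list passed.

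In the list of B cell receptor signalling genes, 4 of 36 rose and 9 fell, with a median log2 fold change of -0.07. Ifitm1, of the interferon-induced membrane proteins, read 610.4 and 589 on the Rictor-/- arrays and 176 and 170.01 on the WT arrays, and Pik3ap1, which encodes the PI3-kinase adaptor BCAP, 313 and 302 on the Rictor-/- arrays and 82.6 and 85.4 on the WT arrays. The log2 fold change of Pik3ap1 was 1.69, and 0.80 with its probe sets averaged. Pik3r5, a regulatory subunit of PI3-kinase γ, rose by 0.76 on the log2 scale. Nfatc1, a calcium-driven transcription factor, and Fyn, a Src family kinase, fell by 0.68 and 0.37. Both are at work in T cells as well, as are most genes of this list. With WT replicate 1 or WT replicate 2 left out, 8 genes of the list passed.

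The list of inhibitory and Fc receptors with their phosphatases had 3 higher and 3 lower genes of 22, with a median log2 fold change of 0.0024. Fcgr3 had a log2 fold change of 1.26, while the inhibitory receptor gene Cd5 and the phosphatase gene Ptpn11 fell by 0.47 and 0.49. Ptpn11 was at -0.28 with its probe sets averaged. Ptpn6, which encodes SHP-1, the phosphatase of CD22, read 888 and 886 on the Rictor-/- arrays and 926 and 891 on the WT arrays and did not pass (adjusted p = 0.713 from limma). Inpp5d, which encodes SHIP-1, the phosphatase of FcγRIIB, had a log2 fold change of -0.25, but did not pass without WT replicate 1 or without WT replicate 2 (adjusted p = 0.127 and 0.0587 from limma) and was at -0.08 with probe sets averaged. With WT replicate 1 or WT replicate 2 left out, 3 genes of this list passed.

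Among B cell transcription factor genes, 4 of 31 rose and 11 fell, with a median log2 fold change of -0.06. Bcl6, the repressor of germinal center B cells and TFH cells, read 208 and 231 on the Rictor-/- arrays and 467 and 408 on the WT arrays. Foxo1 and Ets1 fell by 0.67 and 0.44 on the log2 scale, and Id2, an inhibitor of E proteins, and Zbtb32 rose by 0.57 and 0.58. With probe sets averaged, Foxo1 was at -0.40 and Zbtb32 at 0.25. Prdm1, which encodes Blimp-1, the factor of plasma cells and of effector T cells, read 68.5 and 64.2 on the Rictor-/- arrays and 43.2 and 44.8 on the WT arrays, with a log2 fold change of 0.46. Of the factor genes that define B cells, Pax5, among the 4 that rose, read 16.9 and 16.6 on the Rictor-/- arrays and 13.3 and 11.1 on the WT arrays, and Ebf1 7.54 and 7.74 on the Rictor-/- arrays and 8.24 and 6.44 on the WT arrays, so that both stayed dimmer than the median probe set. Pax5, at a log2 fold change of 0.22, did not pass without Rictor-/- replicate 1, Rictor-/- replicate 2 or WT replicate 2 (adjusted p = 0.0938, 0.0687 and 0.163 from limma), and was at 0.44 with an offset of 1 and at 0.12 with probe sets averaged. Without WT replicate 1, 9 genes of the list passed, and 8 without WT replicate 2.

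In the plasma cell and secretory list, 12 of 41 genes rose and 6 fell, with a median log2 fold change of 0.04. Prdx4, a peroxidase of the endoplasmic reticulum, read 377 and 326 on the Rictor-/- arrays and 187 and 189.8 on the WT arrays, with a log2 fold change of 0.84. Ssr4, of the translocon, and Txndc5, a disulfide isomerase, rose by 0.41 and 0.37, and Slamf7, a surface receptor of plasma cells and cytotoxic lymphocytes, by 0.56. With probe sets averaged, Prdx4 was at 0.30 and Ssr4 at 0.20. Hspa5, the abundant chaperone BiP, read 3556 and 3629 on the Rictor-/- arrays and 3817 and 3827 on the WT arrays and did not pass (adjusted p = 0.135 from limma), although it did after quantile normalization. Xbp1, the factor of the secretory program, had a log2 fold change of -0.19 and did not pass without Rictor-/- replicate 1, WT replicate 1 or WT replicate 2 (adjusted p = 0.284, 0.338 and 0.147 from limma). Without WT replicate 1, 9 genes of the list passed, and 8 without WT replicate 2.

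Of 24 germinal center B cell genes, 4 rose and 6 fell, with a median log2 fold change of -0.0066, and 4 passed without WT replicate 2. St6gal1, Cxcr5 and Bcl6 were the lower ones with the smallest p, and TFH cells express each of them. Of 36 myeloid and dendritic cell genes, 9 rose and 1 fell, with a median of 0.08 and with Itgax at 1.28 and Ccr2 at 0.79. Of 23 T cell genes, 2 rose and 13 fell, with a median of -0.23. Of 14 CD8 T, NK and erythroid genes, 7 rose, with a median of 0.16 and with Klrk1 at 1.45. Of the 7, Alas2 and Slc4a1 were dimmer than the median probe set, and 5 genes passed with dim probe sets left out. Fewer than 7 passed with WT replicate 1 or WT replicate 2 left out.

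**Figure D4:**
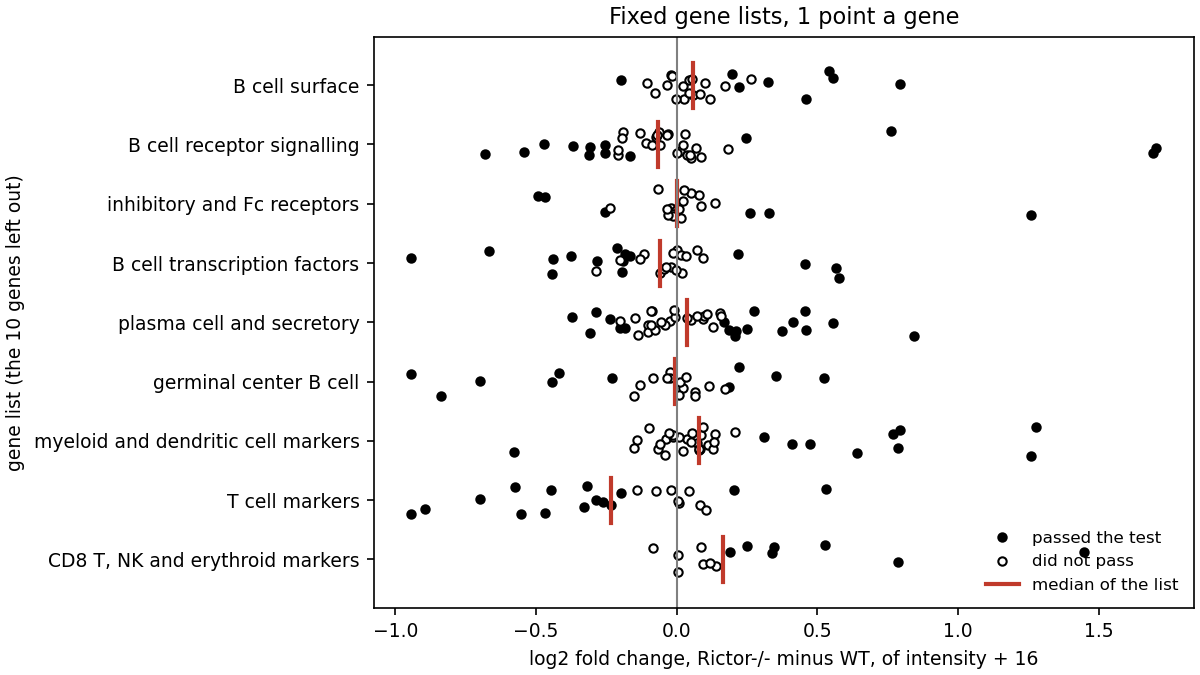
Log2 fold change (x axis, Rictor-/- minus WT, of intensity + 16) of the genes of 9 lists, with the 10 genes left out, 1 point per gene, filled where the gene passed (limma, adjusted over all genes), and a red bar at the median of each list. The medians run from -0.23 for T cell genes to 0.16 for CD8 T, NK and erythroid genes, and the 5 lists of B cell and plasma cell genes other than the germinal center list lie between -0.07 and 0.06.

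Finally, the genes with the values most like Cd22 and Jchain were sought among 6472 genes with a mean intensity of at least 100, by the Euclidean distance over the 4 arrays of log2 values centred on the gene's mean. For Cd22 these were Egln3, at a distance of 0.032, St6gal1 at 0.046 and Tox2 at 0.059. St6gal1, which encodes the sialyltransferase that makes the α2,6-linked sialic acid CD22 binds, read 689.9 and 659 on the Rictor-/- arrays and 1218 and 1216 on the WT arrays, a linear ratio of 0.554 beside 0.558 for Cd22. With all probe sets of a gene averaged, the log2 fold change of St6gal1 was -0.40 in place of -0.84, and that of Tox2 -0.53 in place of -0.85. Egln3, an oxygen-sensing hydroxylase, read 193 and 192 on the Rictor-/- arrays and 342 and 347 on the WT arrays. For Jchain they were Gzmk at 0.107, Klrk1 at 0.113 and Klrg1 at 0.133, a granzyme and 2 lectin-like receptors of cytotoxic lymphocytes. Gzmk read 2337 and 2281 on the Rictor-/- arrays and 886 and 838 on the WT arrays. With 4 arrays in 2 groups this distance reads mainly the size of the group difference.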

How the data were processed

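The series holds 4 Affymetrix mouse arrays. The authors deposited 1 linear intensity per probe set and array, already scaled. MAS5 and RMA are both named in the submitters' notes, without version or role, so the summary method of these values is unknown. RNA was extracted with TRIzol, labelled with biotin and hybridised by a company. The surface markers used to sort the cells for the arrays are cited to earlier work in the methods and not given there. Of 45037 probe sets, 34945 have 1 gene symbol, 932 several and 9160 none in the platform annotation. Probe sets with several or none named no gene, and 34741 matched a RefSeq table (GRCm38.p6) by Entrez number, which changed 0 symbols. Values became log2(intensity + 16). The groups were compared over 18193 genes by limma (version 3.58.1, under R 4.3.3), using lmFit, eBayes with an intensity trend and Benjamini-Hochberg adjustment over all genes at a threshold of 0.05. The immunoglobulin probe sets were read from the same fit over all probe sets. The steps were tested on simulated data.

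The members and lists were chosen with earlier results of these data known. Genes named are the 10 members, Rictor, the cell type markers, up to 4 genes with the smallest p and up to 3 brightest of each list, the 3 nearest genes to Cd22 and Jchain, and the 3 brightest immunoglobulin probe sets. Iglon5, which shares their prefix and is no immunoglobulin gene, was left out. Pou2f2, Prdm1, Xbp1 and Txndc5 were named for their known roles after their values were seen. Alternatives were an offset of 1, median centring, quantile normalization, probe sets averaged per gene, a filter on dim ones, adjustment over all probe sets, eBayes with no trend, a replicate block, each array left out, and the methods' t-test. The ratio of linear means, the other probe sets of each gene and the fits of the immunoglobulin probe sets were added after seeing the data.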

Additional observations from a re-analysis of the deposited data

How the results depend on the processing

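The count of 7 of the 10 genes called held with the offset of 1, both other scalings and probe sets averaged per gene. It held with adjustment over all probe sets and with no trend. It also held with the filter on dim probe sets, which removed Cd79a, Ms4a1 and Blnk beforehand and so tested only the 7. With an array left out, it ranged from 5 to 7, and the genes called among all 18193 from 1424 to 3016, against 3591. The replicate block gave 3748 genes (2366 higher and 1382 lower) and 7 of the 10. The labels name no batch for the replicate numbers, and same-numbered arrays did not deviate together (correlation -0.033 across genes). The main fit did not pair the arrays, and 2 arrays per group are too few to tell whether a batch was shared. The methods' t-test was run one-tailed, with the tail taken from the direction each gene showed, so that 0.05 applied to each direction and is lenient. Unadjusted, it called 5374 genes and 9 of the 10, the dim Blnk and Ms4a1 among them. After adjustment it called 6 genes and 1 of the 10. Adjusted, it called 0 genes in each of the 9 lists (8 to 21 unadjusted) and 0 immunoglobulin probe sets (17 unadjusted). With 1 array left out, the calls ranged from 4 to 8 in the B cell surface list, 8 to 13 in receptor signalling and in transcription factors, 3 to 5 in inhibitory and Fc receptors, 8 to 18 in the plasma cell and secretory list, 4 to 10 in the germinal center list, 3 to 6 in the CD8 T, NK and erythroid list, and 8 to 14 among immunoglobulin probe sets. With the mean of all probe sets, the CD8 T, NK and erythroid list had 4 calls. The sign turned only where values lay near 0 among the 10 genes: Cd79a was at -0.0294 without Rictor-/- replicate 1 and ranged up to 0.125 with an array left out, a second Ms4a1 probe set was at 0.0346, and the dimmest Fcgr2b probe set at -0.00096. Pou2f2 was at -0.01 and turned to 0.0662 with probe sets averaged, and with an array left out it ranged from -0.0489 to 0.0219, turning without Rictor-/- replicate 1 and without WT replicate 1. Over the 10 genes, 138 results kept direction and, where there was a p-value, side of the threshold, 11 no longer passed, 2 newly passed and 3 turned. The dim filter, the adjustment, the trend, the block and the t-test leave a fold change as it was, so that direction could not turn there. Ratios of linear means have no p-value and were judged by direction alone. These counts therefore do not measure robustness. The cause of the results that changed was not tested. Signal limits Cd79a, Ms4a1 and Blnk, whose probe sets lay below the array's median.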
